A study of Mus musculus with 6 samples.

Results

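Growing axons end in a growth cone, and a small set of neuron-enriched phosphoproteins sits there beneath the membrane and on the microtubules. The account here covers 9 of their genes, Gap43, Marcks, Crmp1, Dpysl2, Dpysl3, Dpysl4, Stmn2, Stmn3 and Stmn4, in the mouse cerebellum with and without L1cam. They were taken as every probe set whose single gene symbol in the array annotation was one of the 9 names, which gave 12 of the 12422 tested probe sets. All 9 genes were found, 7 with 1 probe set, Stmn3 with 2 and Stmn2 with 3.

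The arrays, Affymetrix Murine Genome U74Av2, measured total RNA of whole cerebellum at postnatal day 11. There were 3 arrays from L1CAM knockout (-/Y) mice, labelled male, and 3 from their wild type siblings, whose sex the labels do not give, all of strain 129S2/SvPasCrlf. L1cam, carried on the X chromosome, encodes an adhesion molecule of growing axons; the labels name no promoter or Cre line that would limit the knockout to some cells. The part of the gene that was altered is not given in the sources used here. The comparison asks how growth cone transcripts differ when this axonal adhesion molecule is missing.

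GAP-43 and MARCKS are membrane-bound substrates of protein kinase C that bind calmodulin and influence the actin cortex. The collapsin response mediator proteins (CRMPs), encoded by Crmp1 and the Dpysl genes, bind tubulin and act downstream of semaphorin 3A, with kinases such as Cdk5 and GSK3 controlling that binding. Stathmins bind free tubulin and promote microtubule disassembly, and Stmn2, Stmn3 and Stmn4 encode the membrane-anchored neuronal forms. At this age most cerebellar neurons are young granule cells that are extending parallel fibres, so genes of axon growth are normally active.

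Values are RMA log2 levels, and 1 unit is a doubling. Differences are given as knockout minus wild type, so a positive value means a higher knockout mean, and levels of different probe sets cannot be ranked against each other. L1cam itself differed by -0.60 (SE 0.10), with every knockout array below every wild type array (limma adjusted p = 0.841). RMA values carry no detection call, so signal above the median of all probe sets is only a rough sign that a marker of the labelled tissue was present. It was seen for 13 of 14 granule neuron genes (not Meis1) and 10 of 11 Purkinje cell genes (not Pcp4), but also for 7 of 8 oligodendrocyte, 9 of 10 astrocyte and 9 of 11 vessel, meninges and choroid plexus genes. The brain stem list had 3 of 9. The check therefore cannot establish that a listed cell type was present or absent, and it does not set the tissue apart from others. The array labelled knockout 1 stood apart on other grounds. Its Y-linked Eif2s3y read 7.11 and Uty 6.67, against at least 8.59 and 7.32 in the other 5 arrays, which goes against the label male. The Y-linked Kdm5d did not set it apart (7.217 against at least 7.218), and Xist read no higher than 6.41 on any array. The Xist probe set was dim (percentile 8.39 of mean level), so it cannot decide the sex of any array. Kdm5d and Uty were at percentiles 20.7 and 20.4. The -/Y genotype given for knockout 1 is open to the same doubt. L1cam read 8.25 on it, against 8.01 and 7.91 in knockout 2 and 3, and differed by -0.70 without this array. The gap between its 3' and 5' Gapdh control probe sets, a sign of RNA quality, was 0.67 log2, against at most 0.13 on the others. Results of the 9 genes in which this array was the extreme one are given with and without it, and those of other genes in part.

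Crmp1 had the furthest difference of the 9 genes and Gap43 the next on the same side, both with higher knockout values, while Stmn4 had the furthest difference in the other direction. None of the 12 probe sets passed an adjusted p of 0.05 in limma, where 0.00% of all probe sets passed. The smallest adjusted p among the 12 was 0.876. Before adjustment, p was under 0.05 for 2 probe sets with higher knockout values (Crmp1 and Gap43) and for 1 with lower values (Stmn4), against 2.46% and 2.62% of all probe sets. Groups did not overlap for Crmp1 and Gap43, both higher, and for 0 of the 12 on the lower side, where 3.76% of all probe sets were higher and 6.63% lower without overlap. Knockout means were above wild type for 8 of the 12 probe sets and below for 4, against 37.7% and 62.3% of all probe sets. Signs over all probe sets were counted on the deposited values only. Other scalings moved the median of all to between -0.0043 and 0.0089. The median difference of the 12 was 0.048, beside -0.023 over all 12422, and the median absolute difference was 0.089 beside 0.054. All 9 genes lay above the median level at their brightest probe sets, and the background was not matched for level. The counts above describe 12 probe sets chosen with earlier results known, and no test was made of them as a list.

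**Figure D1:**
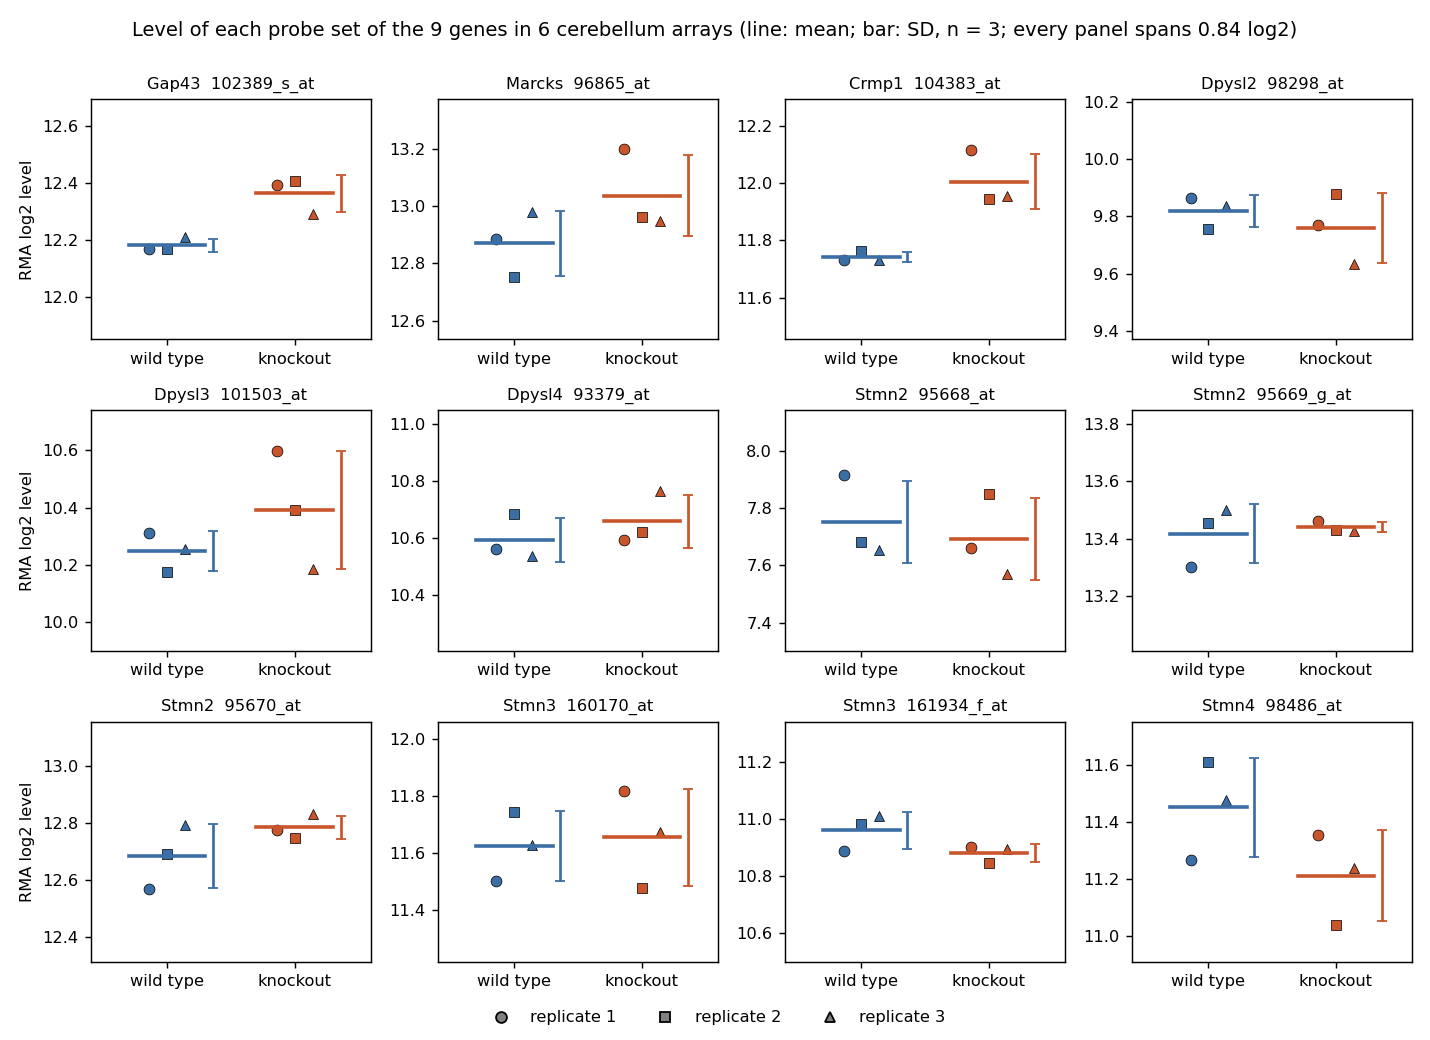
RMA log2 level (y axis) of the 12 probe sets of the 9 genes in 3 wild type (blue) and 3 knockout (orange) arrays, with group mean (line) and SD (bar, n = 3). Each panel spans the same log2 range around its own mean. The groups separate for Gap43 and Crmp1, and the other 10 panels overlap.

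Among the membrane-bound kinase C substrates, Gap43, a growth cone protein of regenerating and developing axons, was measured by 102389_s_at. It read 12.17, 12.17 and 12.21 in wild type 1 to 3 and 12.39, 12.41 and 12.29 in knockout 1 to 3. All 3 knockout arrays lay above all 3 wild type arrays, with 0.081 log2 between the nearest 2. The wild type arrays lay very close together (SD 0.023, n = 3) and the knockouts less so (SD 0.063, n = 3). The difference was 0.18 (SE 0.06, 95% interval 0.046 to 0.32), or 1.13-fold, with an unadjusted p of 0.0136 and a limma adjusted p of 0.922. Without knockout 1 it was 0.17 (unadjusted p = 0.0477, limma), so the value did not rest on that array. With each array left out in turn it lay between 0.16 and 0.22. The suffix of this probe set's name marks probes that may read more than 1 transcript.

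Marcks, a substrate that releases the membrane when phosphorylated, had 1 probe set. It read 12.88, 12.75 and 12.98 in wild type and 13.20, 12.96 and 12.95 in the knockouts. Knockout 1 was highest, and the other knockout arrays lay just below wild type 3. The difference was 0.17 (SE 0.09, 95% interval -0.027 to 0.36, limma adjusted p = 0.922), and 0.083 (SE 0.08) without knockout 1. Its value thus depended on the array with the wide Gapdh gap.

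Relatives of these genes were read from a list of 6 that are not among the 9. Marcksl1, the smaller MARCKS-like protein, differed by 0.28 (SE 0.13), and Basp1, another calmodulin-binding protein of the growth cone membrane, by 0.074 at one probe set and 0.052 at the other. Both were highest in knockout 1, at 13.04 for Marcksl1 and 14.54 for the brighter Basp1 probe set, and without that array they differed by 0.19 (SE 0.14) and by 0.014 and -0.042. Nrgn (neurogranin), which shares the calmodulin-binding motif of GAP-43, differed by 0.0096 and Pcp4 by -0.062, both at dim probe sets (percentiles 30.9 and 11.4). None of the 5 relatives measured passed (limma adjusted p from 0.922 to 0.985 at the brightest probe set of each).

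In the CRMP family, Crmp1, a mediator of semaphorin 3A signalling, read 11.73, 11.76 and 11.73 in wild type 1 to 3. It read 12.12, 11.94 and 11.95 in knockout 1 to 3. Every knockout array lay above every wild type array, by 0.18 log2 at the nearest, and the wild type values lay close together (SD 0.019, n = 3). The difference was 0.26 (SE 0.07, 95% interval 0.12 to 0.41), or 1.20-fold, with an unadjusted p of 0.00254. The limma adjusted p was 0.876, and 0.628% of all probe sets had a difference at least as high. Without knockout 1, the highest array, it was 0.21 (SE 0.07, unadjusted p = 0.0137, limma), and with each array left out in turn it lay between 0.21 and 0.29.

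RefSeq places the start of Crmp1 transcripts at 2 positions on chromosome 5, and the deposited values do not tell them apart. The bases just upstream of each are shown because Crmp1 had the furthest difference. The promoter table held entries for 2 of the 9 genes, Crmp1 and Stmn3. Both windows are 250 bases of GRCm38.p6 read 5' to 3' on the plus strand, and end at the base before the start. Capitals mark GGGCGG or its reverse complement CCGCCC (a GC box, the core of Sp1 sites), searched on both strands with matches allowed to share bases.
Crmp1 upstream start, chr5:37241808-37242057: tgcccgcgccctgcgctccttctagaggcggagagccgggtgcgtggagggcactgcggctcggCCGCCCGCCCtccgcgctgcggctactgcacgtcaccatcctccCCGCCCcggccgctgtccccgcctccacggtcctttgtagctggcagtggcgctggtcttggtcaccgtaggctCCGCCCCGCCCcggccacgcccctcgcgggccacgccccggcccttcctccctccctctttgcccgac
Crmp1 downstream start, chr5:37245514-37245763: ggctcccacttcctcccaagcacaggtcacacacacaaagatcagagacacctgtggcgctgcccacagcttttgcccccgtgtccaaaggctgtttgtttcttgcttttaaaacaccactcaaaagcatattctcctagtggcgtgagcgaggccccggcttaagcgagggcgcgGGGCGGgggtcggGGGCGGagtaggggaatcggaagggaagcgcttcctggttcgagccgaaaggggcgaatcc
The first window holds 5 matches and is 75.6% G or C, and the second holds 2 matches and is 59.6% G or C. Of all 32851 windows of this length in the table, 32.7% hold at least 1 match, and the median G or C content is 52.4%. The matches are descriptions of the letters, and the expression values do not bear on them.

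Dpysl2 encodes CRMP2, the best studied of the family in axon formation. Its levels were 9.86, 9.76 and 9.84 in wild type and 9.77, 9.88 and 9.63 in the knockouts, so knockout 2 was highest and knockout 3 lowest. The difference was -0.059 (SE 0.07, 95% interval -0.22 to 0.11). Dpysl2 thus had the opposite sign to Crmp1, and it was 0.0050 without knockout 3.

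Dpysl3 encodes CRMP4, which is most abundant in newly born neurons. Wild type arrays read 10.31, 10.18 and 10.26 and the knockouts 10.60, 10.39 and 10.19. The knockouts spread widely (SD 0.21, n = 3), with knockout 1 highest of all arrays and knockout 3 among the lowest. The difference of 0.14 (SE 0.10, 95% interval -0.071 to 0.36) became 0.041 without knockout 1 and 0.25 without knockout 3. Of the 12 probe sets this one moved furthest with single arrays.

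For Dpysl4, which encodes CRMP3, wild type read 10.56, 10.68 and 10.54 and the knockouts 10.59, 10.62 and 10.77. The groups overlapped and the difference was 0.066 (SE 0.07, 95% interval -0.092 to 0.22). It was 0.013 without knockout 3 and 0.11 without wild type 2. Here knockout 3, not knockout 1, was highest. None of the 4 CRMP genes passed (limma adjusted p from 0.876 to 0.942), and 3 of the 4 had a higher knockout mean. Dpysl5, the fifth family gene, was not measured by a probe set with a single symbol.

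**Figure D2:**
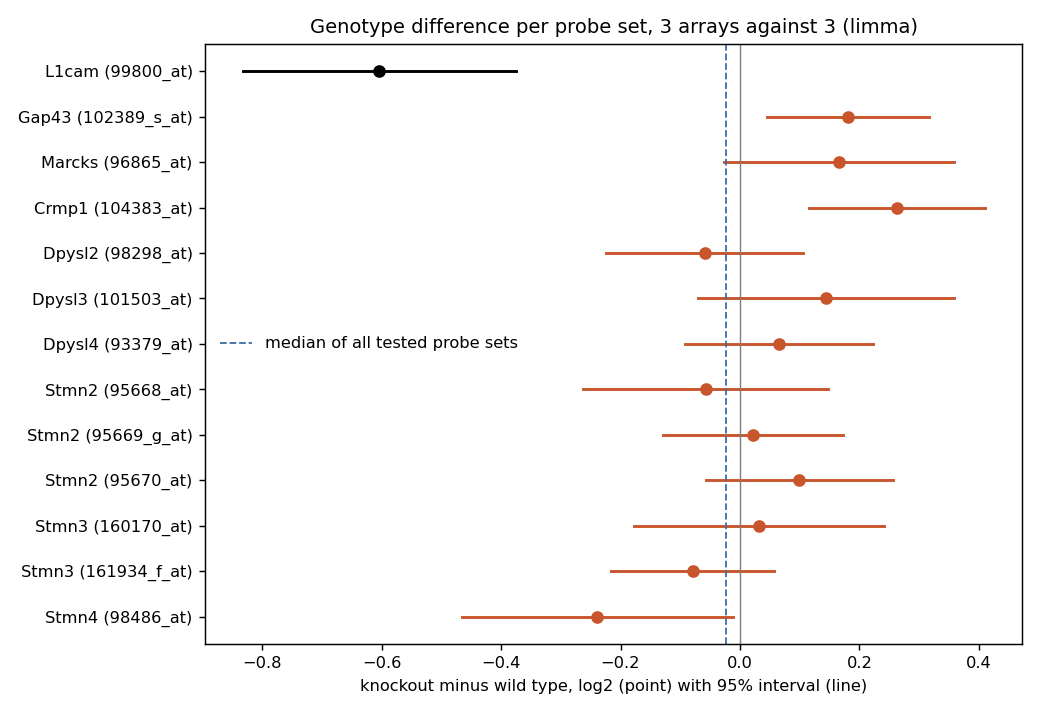
Knockout minus wild type on the log2 scale (x axis) with 95% interval for L1cam and the 12 probe sets (y axis), from limma with 3 arrays per group. The dashed line is the median over all tested probe sets, -0.023. Intervals of Gap43, Crmp1 and Stmn4 leave out 0 before adjustment, and those of the other 9 probe sets include it.

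Stmn2 encodes SCG10, a stathmin of growth cones that is needed for axon regrowth. Its 3 probe sets did not give 1 answer. Probe set 95669_g_at read 13.30, 13.45 and 13.50 in wild type and 13.46, 13.43 and 13.43 in the knockouts, a difference of 0.022 (SE 0.07, 95% interval -0.13 to 0.17). The 3 knockouts lay inside the wild type range. Probe set 95670_at read 12.57, 12.69 and 12.79 in wild type and 12.77, 12.75 and 12.83 in the knockouts, a difference of 0.099 (SE 0.07). Wild type 1 was lowest at both, and leaving it out gave -0.037 at the first and 0.042 at the second. The third, 95668_at, was dim (percentile 27.3 of mean level) and differed by -0.058, with wild type 1 highest at 7.92. Over the 6 arrays the brighter pair correlated at r = 0.81, while the dim one ran against them (r = -0.72 and -0.80), although it carries the same accession as 95669_g_at.

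Stmn3 encodes SCLIP, a stathmin involved in neurite branching. At 160170_at wild type read 11.50, 11.74 and 11.63 and the knockouts 11.82, 11.48 and 11.67. Knockout 1 was highest and knockout 2 lowest, and the difference of 0.031 (SE 0.09) was -0.049 without knockout 1. At 161934_f_at wild type read 10.89, 10.98 and 11.01 and the knockouts 10.90, 10.84 and 10.89. That difference was -0.079 (SE 0.06, 95% interval -0.22 to 0.058), and the pair of probe sets correlated at only r = 0.43. For Stmn3 the sign was therefore not settled by these arrays.

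Stmn4, which encodes RB3, a stathmin largely restricted to the nervous system, had the lowest knockout values relative to wild type. It read 11.27, 11.61 and 11.48 in wild type 1 to 3 and 11.36, 11.04 and 11.24 in knockout 1 to 3. Knockout 2 and knockout 3 lay below all wild type arrays, while knockout 1 lay above wild type 1, so the groups overlapped. The difference was -0.24 (SE 0.10, 95% interval -0.47 to -0.012), or 1.18-fold lower, with an unadjusted p of 0.0412 and a limma adjusted p of 0.922. Only 0.974% of all probe sets had a difference at least as low. Without knockout 1 it was -0.31 (SE 0.11), without wild type 1 -0.33, without wild type 2 -0.16 and without knockout 2 -0.15. Stmn1, the widely expressed stathmin of dividing and young cells, differed by 0.19 (SE 0.11) at its bright probe set, where knockout 1 read 14.25 and the other 5 arrays at most 13.90, and by 0.049 (SE 0.08) without knockout 1. At its dimmer probe set it differed by -0.063.

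Across the 6 arrays the 66 pairs of probe sets had a median correlation of 0.052, with 35 above 0. Such values share the same arrays, RNA and scaling, and 6 points make them rough. The highest between genes were Stmn3 (161934_f_at) with Stmn4 (r = 0.90) and Gap43 with Crmp1 (r = 0.89), followed by Marcks with Dpysl3 (r = 0.85). Gap43 ran against Stmn4 (r = -0.64), and Dpysl2 against Dpysl4 (r = -0.84). Gap43, Marcks, Crmp1 and Dpysl3, singled out after their values were seen, correlated above 0.7 in every pair, and all 4 were above their own means in knockout 1 and knockout 2. Over the 5 arrays without knockout 1 their pairs ran from r = 0.17 to 0.87, and 1 of 6 exceeded 0.7, so this grouping rested on that array. Knockout 1 was the highest array for 4 of the 12 probe sets and the lowest for none. The share of all probe sets highest or lowest on it was not counted. Probe sets of other genes followed the same profiles: Actr3, a subunit of the actin-nucleating Arp2/3 complex, followed Crmp1 most closely (r = 0.99), with Cnbp next (r = 0.98). For Stmn4 they were Sgce and Mpp1 (r = 0.99 each), for Gap43 Gm14743 and Syce2 (r = 0.97 each), for Marcks Rad21 and Abcb1b (r = 0.99 each) and for Dpysl3 Mcm10 and Eif2d (r = 0.99 each). For Dpysl2 they were Cblif and Reg3b (r = 0.996 each), for Dpysl4 Pdk3 and Fam3c (r = 0.98 each), for Stmn2 Rab5c (r = 0.99) and Dsp (r = 0.98), and for Stmn3 Tspan31 and Bub3 (r = 0.99 each). These were the nearest of at least 10830 candidates on 6 points, and between 28 and 551 candidates exceeded r = 0.9 with each gene, so they single out nothing.

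**Figure D3:**
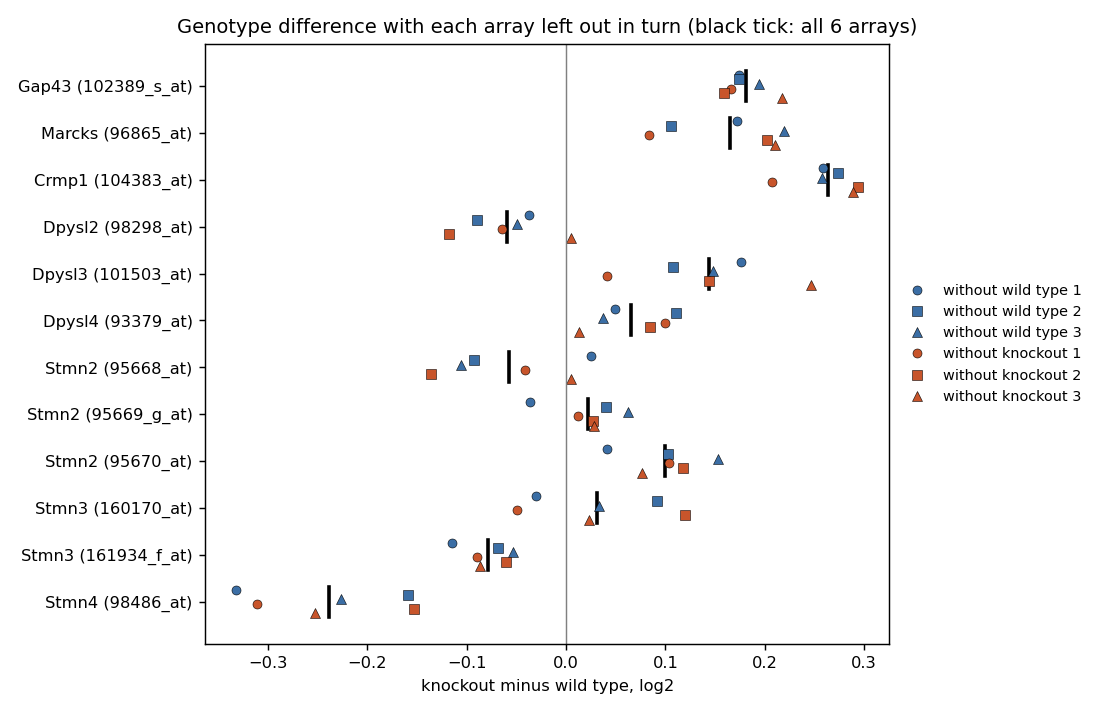
Knockout minus wild type on the log2 scale (x axis) for each of the 12 probe sets (y axis) with 1 array left out at a time, blue for wild type and orange for knockout arrays, and a black tick for all 6. Gap43 stays between 0.16 and 0.22 and Crmp1 between 0.21 and 0.29, while Dpysl3 runs from 0.041 to 0.25 and both Stmn3 and Stmn2 have probe sets on either side of 0.

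The surrounding pathway was read from a list of 60 partners, of which 47 had a probe set with a single symbol, the brightest being used. None passed (limma), 23 were higher and 24 lower, and their median was -0.0062 beside -0.022 over all 8251 genes. With the probe sets of a gene averaged it was -0.021, at the level of all genes. Of all 8251 genes, 3160 were higher and 5091 lower, which is the background for the sign counts of partners and markers below. Before adjustment, p was under 0.05 for Rhoa, which was higher, and for Plxna2, which was lower, where 2.69% and 2.53% of all genes lay on those sides. Knockout 1 was the highest array for Rhoa. Without it Rhoa differed by 0.14 (unadjusted p = 0.124, limma) and Plxna2 by -0.20 (unadjusted p = 0.0214, limma). Groups did not overlap for 2 of the 47 on each side, beside 4.0% of all genes higher and 6.69% lower. In these calls and in overlap the partner list was thus close to the background, while 23 of 47 were higher beside 3160 of 8251 genes. The semaphorin ligand and receptors upstream of the CRMPs all had lower knockout means, the commoner direction over all genes in the values as deposited. Plxna2, a plexin that transmits semaphorin signals, read 8.96, 9.04 and 9.05 in wild type and 8.81, 8.78 and 8.86 in the knockouts, with no overlap, and differed by -0.20 (SE 0.06, limma adjusted p = 0.885). Plxna1 differed by -0.12 without overlap, the ligand Sema3a by -0.13, the co-receptor Nrp1 by -0.052 and Plxna3 by -0.031. Crmp1 and these 5 genes thus had opposite signs, and a test of that contrast was not made.

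Kinases and their subunits split into 8 higher and 10 lower, and the median of the 18 was -0.025. Fyn, a Src family kinase of axons, differed by 0.13 without overlap, and Rock1, a kinase activated by RhoA, by -0.11 at one probe set and -0.037 at another. Cdk5 and its activator Cdk5r1 differed by -0.028 and -0.080, and Gsk3a by 0.018. Cdk5r1 was lowest in knockout 1 and differed by -0.0098 without that array. The 4 phosphatase subunits measured were all higher in the mean, led by Ppp2ca at 0.14 (SE 0.08). Among GTPases and actin proteins 5 of 6 were higher. Rhoa, a regulator of actin contraction, differed by 0.19 (SE 0.08) at its brightest probe set but by 0.093 and -0.062 at its other probe sets, and Cfl1 (cofilin), which severs actin filaments, by 0.13 without overlap. Rhoa at its brightest probe set and Cfl1 were both highest in knockout 1. Without that array they differed by 0.14 and 0.079. Actb differed by 0.38 (SE 0.44), with knockout 1 at 12.06 and the other arrays at most at 10.87, and by 0.52 (SE 0.43) at its other probe set. Without knockout 1 these were -0.24 and -0.12, so the sign turned with that array. Tubulins and microtubule proteins had 5 higher and 4 lower (median 0.017), from Map2 at -0.18 to Tubb5 at 0.13 at the brightest probe sets. Tubb5 was highest in knockout 1 there and differed by 0.027 without that array. At other probe sets Tubb3 differed by 0.21 (SE 0.09, unadjusted p = 0.0366, limma), Tubb5 by 0.16 and Tuba1a by 0.037. Those of these 3 genes were highest in knockout 1 too. Tubb2a differed by -0.11 and Mapt by -0.10 and -0.075 at their other probe sets. Among the other partners Calm2, a calmodulin gene, differed by 0.097 and Elavl4, which binds Gap43 mRNA, by -0.031. Elavl4 was highest in knockout 1 and differed by -0.19 without that array.

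**Figure D4:**
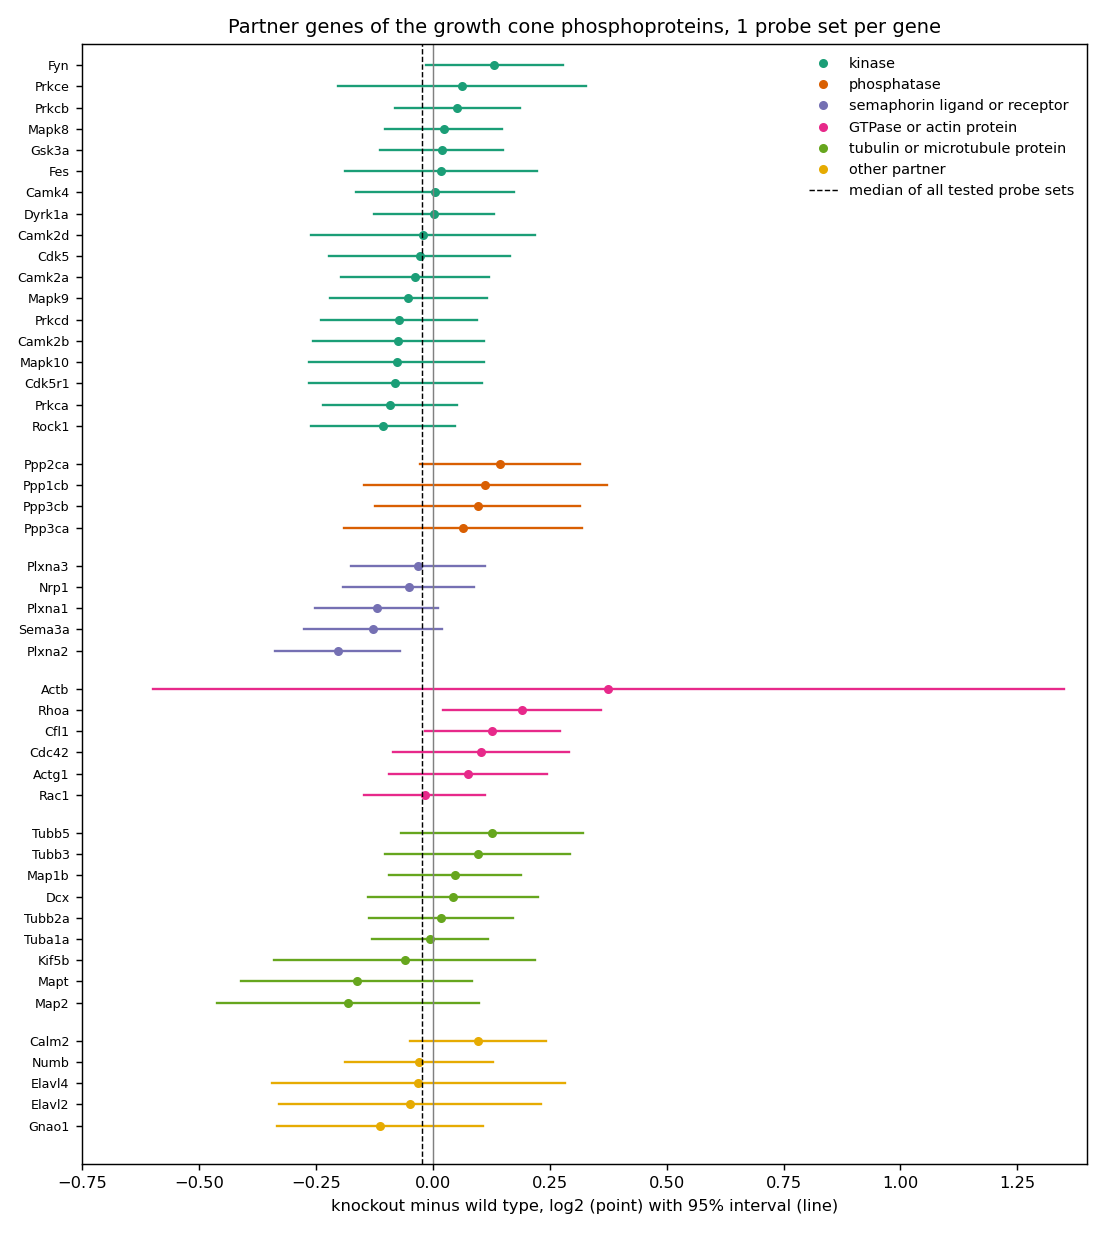
Knockout minus wild type on the log2 scale (x axis) with 95% interval for 47 partner genes (y axis), coloured by role, 1 probe set per gene. All 5 semaphorin ligand and receptor genes lie below 0 and all 4 phosphatase subunits above it, and the Actb interval is the widest. Of all 8251 genes, 5091 lay below 0 and 3160 above it.

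In bulk tissue, fewer cells of a type and less RNA per cell cannot be told apart, so markers of cerebellar cells are set beside these values. The 4 genes Marcks, Crmp1, Dpysl3 and Stmn3 were highest in knockout 1, as were 9 of 15 markers of granule progenitors and dividing cells. Gli2 and Mycn were among the 9, but Atoh1 and Ptch1 read 8.65 and 9.97 there, below every wild type array. How many of all genes were highest or lowest on knockout 1 was not counted, so such counts have no background here. The median deviation of the progenitor and dividing cell list was 0.12 in knockout 1 and 0.089 in wild type 1. Only 6 of its 15 genes had a higher knockout mean, and the median difference was -0.039. The list went both ways. Hmgb2, a chromatin protein of dividing cells, differed by 0.47 (0.27 without knockout 1) and the checkpoint gene Mad2l1 by 0.32 (0.27). Both were higher without overlap. Atoh1 differed by -0.13 (-0.14) and was lower without overlap, while the hedgehog receptor Ptch1 differed by -0.28 (-0.29) with overlap. Over all genes, groups without overlap were commoner on the lower side in the values as deposited. Without knockout 1 the median of the list was -0.067. Their summed level ran from 13.49 to 13.68 log2 in wild type and from 13.57 to 13.83 in the knockouts. Oligodendrocyte markers ran the other way, with 8 of 8 lower in the mean (5091 of all 8251 genes were lower), a median difference of -0.13 and 7 of 8 lowest in knockout 1. Without that array they had 6 of 8 lower and a median of -0.033. Signs and medians over all genes were not computed without knockout 1, so both lists lack that background. The summed level of the oligodendrocyte markers was 14.50 to 14.80 in wild type and 14.31 to 14.66 in the knockouts. No marker passed (limma), RMA values have no 0, and the dimmest of these lists were Mcm6 and Cnp (percentiles 14.2 and 21.5 of mean level). The part of either in the differences of the 9 genes was not tested.

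Granule neuron markers, the cells that make up most of the tissue, had 7 of 14 on either side (median -0.0095), with summed levels of 15.75 to 15.90 in wild type and 15.75 to 15.87 in the knockouts. Nfia (-0.15, without overlap) and En2 (-0.18) were lower at an unadjusted p under 0.05 (limma), 2 of 14 beside 2.53% of all genes. Pax6 was higher by 0.17. Without knockout 1 these were -0.16, -0.19 and 0.10. Over all genes 3160 of 8251 were higher and the median was -0.022. Purkinje markers had 2 of 11 higher (median -0.043) and brain stem neuron markers 1 of 9 (median -0.032). In the brain stem list Prph (-0.12) and Hoxb3 (-0.14) were lower without overlap, 2 of 9 beside 6.69% of all genes. Without knockout 1, 3 of 14 granule neuron, 5 of 11 Purkinje and 2 of 9 brain stem markers were higher. The share of all genes that were higher without that array was not computed. Astrocyte and Bergmann glia markers had 3 of 10 higher (median -0.026), and single genes stood further out. Aqp4, a water channel, had a difference of -0.37 with no overlap of the groups (-0.25 without knockout 1), and the receptor Ntrk2 one of -0.26 (-0.22). The log2 of the summed level of the astrocyte list was 15.59 to 15.72 in wild type and 15.61 to 15.76 in the knockouts. Markers of microglia and blood had 6 of 10 higher (median 0.019), with blood genes apart from the rest. The globins Hba-a1 and Hbb-b2 differed by 0.29 (without overlap) and 0.24, beside 0.26 for Crmp1, and by 0.34 and 0.30 without knockout 1, while the 7 microglial genes lay between -0.11 and 0.071. The log2 of the list's summed level ran from 15.03 to 15.21 in wild type and from 15.25 to 15.41 in the knockouts, with no overlap. That sum adds unlogged levels and the bright globins make up most of it, so it largely repeats their difference. None of these marker genes passed the adjusted threshold, they were picked out after their values were seen, and the part of blood or of other cells in the differences of the 9 genes was not tested. Markers of vessels, meninges and choroid plexus had 6 of 11 higher, with a median of 0.043 that was 0.0034 with the probe sets of a gene averaged. No gene of these lists passed either. Without knockout 1, the array that stood apart, Crmp1 and Gap43 were still higher and Stmn4 lower at an unadjusted p under 0.05, 3 of 12 probe sets against 3.88% of all, and again none of the 12 passed the adjusted threshold. With the Gapdh gap as a covariate, a term that mainly marks knockout 1, the differences were 0.20 for Crmp1, 0.17 for Gap43, 0.094 for Marcks, 0.043 for Dpysl3 and -0.31 for Stmn4.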

How the data were processed

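The deposited values are on the log2 scale, and the submitters' processing notes name RMA, a method that subtracts background, equalises arrays and merges probes into probe sets. Its version and settings, and any genome build, are not given in the sources here. Of 12488 rows, 66 array controls were left out. Genes were named through the annotation table supplied for the array, from probe sets with 1 symbol (10833), and the 12 identifiers of the 9 genes matched RefSeq (GRCm38.p6). Promoter bases are RefSeq's. Genotype was fitted with limma 3.58.1 in R 4.3.3 (lmFit, eBayes, 2-sided) over 12422 probe sets with Benjamini-Hochberg adjustment, threshold 0.05, and tested on simulated data. Arrays carry no read depth. Their number limits precision: the 95% interval reached 0.158 log2 to either side at the median. Each array was taken as 1 mouse, from the design text. The samples, the 9 genes, the lists (given with 1 probe set per gene, the brightest) and the alternatives were chosen with earlier results of these data known. All probe sets of the 9 genes, L1cam and the relatives were named, with the 4 partner genes of smallest unadjusted p in each direction and the 2 nearest profiles per gene. Other partner genes and the marker genes were named after their values were seen. Alternatives covered scaling, filtering, variance model, array weights, replicate block, Gapdh covariate, probe set suffix, averaging over probe sets of a gene, and each array left out.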

Additional observations from a re-analysis of the deposited data

How the results depend on the processing

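Under 15 other settings none of the 12 probe sets of the 9 genes passed the adjusted threshold. Over all probe sets the count was 0 in each, except with 1 array left out, where it ran from 0 to 1 (without knockout 3, limma adjusted p = 0.0447 for the probe set with the smallest p). As deposited, 631 probe sets had an unadjusted p under 0.05. The median over the 12 probe sets, 0.048, was 0.080 after median centring and ran from 0.025 to 0.10 over the single omissions. Median centring also moved the median of all probe sets from -0.023 to 0.0089, and quantile and cyclic loess scaling to -0.0041 and -0.0043. L1cam, Gap43, Marcks, Crmp1, Dpysl3, Dpysl4, Stmn2 (95670_at), Stmn3 (161934_f_at) and Stmn4 kept their sign in every setting that could be computed for them. Gap43 and Crmp1 kept an unadjusted p under 0.05 in all of theirs, and Stmn4 in 9 of 15. The signs that turned, 9 of 190 values, belonged to small differences, and the cause was not tested. Stmn2 at 95669_g_at was -0.015 after quantile and -0.021 after cyclic loess scaling, and ran from -0.037 to 0.063 over the single omissions. Stmn2 at 95668_at ran from -0.14 to 0.025 over these, Stmn3 at 160170_at from -0.049 to 0.12, and Dpysl2 from -0.12 to 0.0050. Stmn3 at 160170_at was also -0.057 with the Gapdh covariate. The replicate block (the shared replicate numbers as a term) changed no call: the count was 0, with 634 probe sets at an unadjusted p under 0.05. Same-numbered arrays correlated in their deviations at 0.16, -0.32 and 0.17, and not every array correlated best with its own number, so the numbers were not taken to pair the mice. Averaging over probe sets of a gene moved the partner list median from -0.0062 to -0.021 and that of vessels, meninges and choroid plexus from 0.043 to 0.0034, within the spread between arrays, as for the other lists. Values without knockout 1 for lists, partners and correlations were added after seeing the data. Settings that left out dim or suffixed probe sets gave no value for those probe sets. Dim signal limits Stmn2 at 95668_at, and the number of arrays limits all values.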
